A study of Mus musculus with 37 samples.

Results

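The genes described here lie on mouse chromosome 6 on both sides of Tmem106b, the gene that the labels give as inactivated (-/-) in part of the animals. They were chosen by a rule of position and level: protein-coding genes of GENCODE M21 (build GRCm38) that start between 3 and 45 Mb of chromosome 6, Tmem106b itself and the Gst genes left out, with a mean of at least 1 CPM (a read count scaled to its library's total) in liver or in cortex. Of 14421 protein-coding genes at that level in either tissue, 155 met the rule, and 260 protein-coding genes start in the region before the limit on level. At 1 CPM or more, 123 members were found in liver, 146 in cortex and 114 in both. The region was proposed with earlier results of these data known, so the counts below are a description of it. The rule used the mean level over all libraries and no difference between genotypes.

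All mice were 10 months old, and both liver and cortex of the brain were sequenced. Of the 4 genotypes, WT and TDP-43Q331K keep TMEM106B, and the 2 others, TMEM106B-/- alone and TMEM106B-/-TDP-43Q331K (called combined), are labelled as lacking it. TDP-43 is an RNA-binding protein linked to amyotrophic lateral sclerosis and frontotemporal dementia, and the series title names the Q331K allele as knock-in. There were 4 liver libraries per genotype, and 5, 6, 5 and 5 cortex libraries in that order of genotypes. The labels do not give sex, strain, or how the TMEM106B allele was made, and no agent was given to any group. Nor do they tie libraries to single animals, so p-values measure the spread between these libraries.

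TMEM106B is a membrane protein of late endosomes and lysosomes, and variants of the human gene modify the risk of frontotemporal dementia. Genes close to a targeted allele on the same chromosome tend to be inherited with it. When an allele made in embryonic stem cells of one strain is bred onto another strain, a stretch of donor DNA on both sides stays with the allele, and it carries the donor's versions of every gene in it. In such a design each member is compared between libraries that differ at Tmem106b and may differ in the linked DNA. Loss of TMEM106B and linked DNA cannot be told apart here, because no genotype separates them.

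Libraries held 50.5 to 74.1 M counts in liver and 28.8 to 46.3 M in cortex (M, mega). Hepatocyte markers such as Alb were high in every liver and near 0 in cortex, and neuronal markers such as Slc17a7 showed the reverse. Among lists of other cell types, all 7 oligodendrocyte markers were lower and all 6 meningeal markers higher in cortex libraries labelled TMEM106B-/-. There 4 of 7 astrocyte, 3 of 6 endothelial and 2 of 7 microglial markers were higher. Of 4 tested choroid plexus markers 1 was higher, while the median log2 fold change of that list was -0.549. Of striatal markers 3 of 7 were lower, and of deep-layer markers 2 of 6. In liver, 2 of 9 stellate cell markers were higher and no marker of 6 other lists passed the test. Less RNA of a cell type can mean fewer cells or less RNA per cell, which cannot be told apart in bulk tissue.

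Tmem106b RNA was not lower in the libraries labelled TMEM106B-/-. In liver it stood at 114, 107, 87.5 and 78.5 CPM in WT and at 113, 102, 63.6 and 89.3 CPM in TDP-43Q331K. It stood at 114, 129, 112 and 107 CPM in the libraries labelled TMEM106B-/- and at 122, 139, 143 and 136 CPM in those of the combined genotype. The average over both backgrounds was 0.41 ± 0.11 (SE) higher on the log2 scale in liver, with an adjusted p of 0.0414. That call was lost in 10 of 22 alternative fits, with adjusted p between 0.00634 and 0.0829. In cortex the difference was 0.06 ± 0.03, with an adjusted p of 0.22. RNA counts of the whole gene cannot tell an allele that leaves its RNA from a wrong label, so groups are named below by their labels.

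The promoters of the 5 genes that mark the region (Cav2, Met, St7, Irf5 and Ephb6), and of Cav1, the neighbour of Cav2, are printed because these genes share a stretch of chromosome yet changed in different tissues and directions. Each runs from 250 bases before to 50 after the start given by RefSeq (GRCm38.p6, plus strand, chromosome 6), taking the first of several starts. Of 155 members, 144 have a promoter in that table. Capitals mark matches to 4 motifs on either strand, with overlapping matches counted apart. The TATA box was searched as TATAAA and occurs in 13.6% of the 32851 promoters in the table. The CCAAT box occurs in 37.4% of them. The GC box was searched as GGGCGG and occurs in 35.7%, and the E-box, searched as CACGTG, in 7.2%. The sequences are of the reference strain and show nothing of a donor strain.
Cav2, chr6:17280935-17281234: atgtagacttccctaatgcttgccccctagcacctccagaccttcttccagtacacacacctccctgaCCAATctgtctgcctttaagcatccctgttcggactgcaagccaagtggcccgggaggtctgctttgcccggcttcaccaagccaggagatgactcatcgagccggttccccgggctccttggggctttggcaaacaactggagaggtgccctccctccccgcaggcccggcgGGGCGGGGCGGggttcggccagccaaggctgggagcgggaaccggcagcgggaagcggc
Cav1, chr6:17306085-17306384: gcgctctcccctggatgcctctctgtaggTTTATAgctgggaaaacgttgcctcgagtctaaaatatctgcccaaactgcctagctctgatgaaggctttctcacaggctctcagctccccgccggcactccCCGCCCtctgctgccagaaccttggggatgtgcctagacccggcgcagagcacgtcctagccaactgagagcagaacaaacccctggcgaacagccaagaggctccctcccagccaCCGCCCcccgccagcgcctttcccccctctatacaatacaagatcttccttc
Met, chr6:17463707-17464006: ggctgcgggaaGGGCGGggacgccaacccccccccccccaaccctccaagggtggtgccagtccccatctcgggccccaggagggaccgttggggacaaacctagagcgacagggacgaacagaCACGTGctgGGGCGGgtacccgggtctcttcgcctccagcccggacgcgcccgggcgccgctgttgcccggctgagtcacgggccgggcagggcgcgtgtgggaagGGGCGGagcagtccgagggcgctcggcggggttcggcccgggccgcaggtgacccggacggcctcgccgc
St7, chr6:17693744-17694043: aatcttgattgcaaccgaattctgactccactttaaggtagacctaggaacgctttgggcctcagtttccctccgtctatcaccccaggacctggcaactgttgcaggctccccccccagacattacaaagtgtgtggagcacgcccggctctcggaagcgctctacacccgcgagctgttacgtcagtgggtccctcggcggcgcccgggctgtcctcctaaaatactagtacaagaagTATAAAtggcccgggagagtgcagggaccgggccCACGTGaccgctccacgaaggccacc
Irf5, chr6:29526375-29526674: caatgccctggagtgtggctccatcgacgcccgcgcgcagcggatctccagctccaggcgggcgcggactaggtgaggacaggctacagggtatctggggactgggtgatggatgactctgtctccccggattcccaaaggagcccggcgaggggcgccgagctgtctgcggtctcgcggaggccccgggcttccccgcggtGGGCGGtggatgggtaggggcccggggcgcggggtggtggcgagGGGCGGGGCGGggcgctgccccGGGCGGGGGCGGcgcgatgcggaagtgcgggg
Ephb6, chr6:41605261-41605560: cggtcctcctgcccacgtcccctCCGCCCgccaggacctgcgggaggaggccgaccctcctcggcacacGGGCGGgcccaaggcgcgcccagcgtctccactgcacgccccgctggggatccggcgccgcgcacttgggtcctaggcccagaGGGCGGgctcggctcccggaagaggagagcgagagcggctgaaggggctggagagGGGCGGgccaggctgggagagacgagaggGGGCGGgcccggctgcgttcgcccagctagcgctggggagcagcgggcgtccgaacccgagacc
Cav2, which fell in cortex, has 1 CCAAT box and 2 GC boxes, and Cav1, which rose there, has 1 TATA box on the minus strand and 2 GC boxes. Met has 3 GC boxes and 1 E-box, Irf5 and Ephb6 have 5 GC boxes each, and St7 has 1 TATA box and 1 E-box but no GC box. A match describes these letters only.

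In both tissues a larger share of members than of other genes differed with the TMEM106B label, and the members went in both directions. The average TMEM106B effect is the mean of 2 differences, TMEM106B-/- against WT and the combined genotype against TDP-43Q331K. A gene is called below where its adjusted p is under 0.05 (edgeR quasi-likelihood test, Benjamini-Hochberg over all genes of the tissue). In liver 17 of 132 members tested were called (12.9%). The share was 4.18% of all genes tested, 4.27% of other protein-coding genes and 7.13% on the rest of chromosome 6. Of the 17 members, 11 were higher (8.33%, against 2.53% of all genes) and 6 lower (4.55%, against 1.66%). In cortex 43 of 148 members were called (29.1%). The share there was 13.7% of all genes, 16.4% of other protein-coding genes and 17.2% of the rest of chromosome 6. Of the 43 members, 25 were higher (16.9%, against 7.7% of all genes) and 18 lower (12.2%, against 5.96%). Gngt1 in liver and Tes in cortex are among those higher. Both met the limit on level through the libraries labelled TMEM106B-/-, so their rise is not independent of the rule. As a second stretch, the genes of chromosome 4 around Tardbp, the TDP-43 gene, were called at 3.82% in liver and 13% in cortex. The difference between these shares was not tested. The median log2 fold change was 0.004 over members and -0.005 over all genes in liver, and 0.012 and 0.003 in cortex, so the region did not shift one way as a whole.

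**Figure D1:**
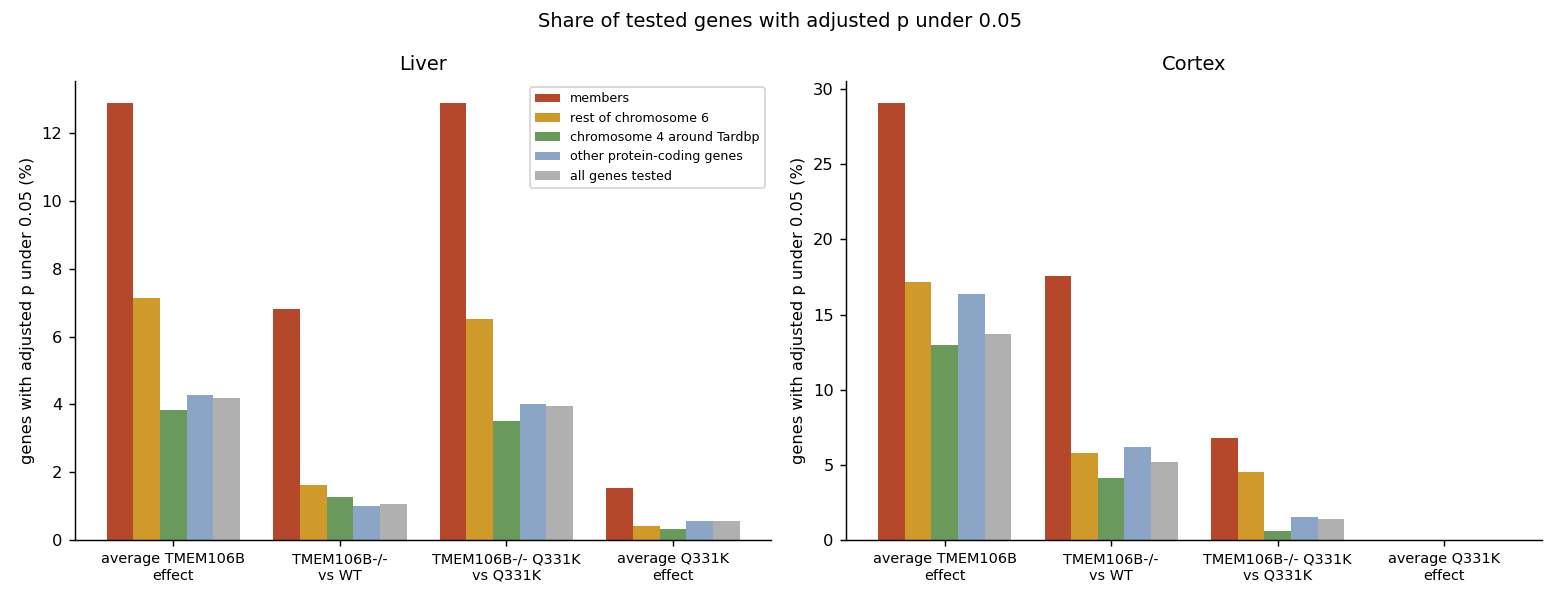
Share of tested genes with an adjusted p under 0.05 (vertical axis, %) in liver and cortex, for 4 comparisons, in the members, the rest of chromosome 6, chromosome 4 around Tardbp, other protein-coding genes and all genes tested. The members' bar is the tallest in the 3 comparisons by TMEM106B label in both tissues (12.9%, 6.82% and 12.9% in liver, 29.1%, 17.6% and 6.76% in cortex). In liver it is also the tallest for the Q331K effect, at 1.52% (2 of 132 members) against 0.545% of all genes tested. All cortex bars of the Q331K effect are at 0.

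In liver, 3 members set all 8 libraries labelled TMEM106B-/- apart from all 8 others, and they lie within about 1 Mb of each other at the far end of the region. Such a separation was seen for 2.27% of members and 0.425% of all genes. Ephb6, a receptor for ephrins whose kinase domain is inactive, starts at 41605482 on chromosome 6, 28.5 Mb from Tmem106b. It stood at 1.14, 1.13, 1.85 and 0.747 CPM in WT livers and at 0.519, 0.315, 0.291 and 0.332 CPM in TDP-43Q331K livers. Libraries labelled TMEM106B-/- held 4.35, 5.48, 5.65 and 4.17 CPM, and those of the combined genotype held 4.09, 6.99, 7.97 and 2.52 CPM. Every library of the last 2 groups lay above every library of the first 2. The average effect was 2.94 ± 0.25 (log2, SE), a 7.70-fold higher level, with an adjusted p of 1.79e-06.

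Tcaf1, a regulator of the cold-sensing channel TRPM8, starts at 42668002. Its liver levels were 3.58, 2.85, 3.40 and 2.14 CPM in WT and 1.86, 2.92, 2.68 and 1.85 CPM in TDP-43Q331K. They were 4.92, 6.93, 6.26 and 6.67 CPM in TMEM106B-/- and 6.56, 9.69, 7.63 and 6.27 CPM in the combined genotype. Tcaf1 thus rose 2.59-fold (log2 1.37 ± 0.15, adjusted p 2.93e-05) with no overlap between the labels. Zyx, which codes for the focal adhesion protein zyxin, starts at 42349630, and it went the other way. Zyx stood at 29.4, 34.6, 31.3 and 28.3 CPM in WT and at 33.7, 32.3, 36.7 and 34.1 CPM in TDP-43Q331K. It stood at 23.3, 18.5, 20.6 and 20.3 CPM in TMEM106B-/- and at 18.3, 20.4, 22.1 and 15.6 CPM in the combined genotype. Zyx fell 1.64-fold (log2 -0.71 ± 0.08, adjusted p 4.56e-05). Exons of Epha1 on the other strand cover 4.4% of the exonic bases of Zyx, and whether counting used strand is not given in the sources used here.

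St7 and Irf5 were the other liver members with the smallest adjusted p-values. St7, named as a candidate suppressor of tumorigenicity, starts at 17692933, 4.62 Mb from Tmem106b, and was the only liver member called within 5 Mb of it. Its levels were 5.41, 5.07, 4.73 and 5.50 CPM in WT, 6.63, 8.61, 5.57 and 8.15 CPM in TDP-43Q331K, 8.58, 9.99, 9.77 and 9.38 CPM in TMEM106B-/-, and 9.67, 10.6, 10.1 and 10.96 CPM in the combined genotype. St7 rose 1.61-fold (log2 0.69 ± 0.09, adjusted p 0.000338), although its highest TDP-43Q331K library lay level with its lowest TMEM106B-/- library. Irf5, a transcription factor of type I interferon and inflammatory cytokine genes in myeloid cells, starts at 29526625. It stood at 11.9, 11.8, 11.1 and 14.3 CPM in WT and at 11.96, 9.32, 11.1 and 12.8 CPM in TDP-43Q331K. It stood at 8.73, 7.86, 9.69 and 9.29 CPM in TMEM106B-/- and at 5.15, 4.47, 4.09 and 3.88 CPM in the combined genotype. The fall was 1.88-fold on average (log2 -0.91 ± 0.09, adjusted p 1.82e-05), with the combined genotype lowest and apart from all other groups. None of 11 Kupffer cell and macrophage markers was called in the same comparison, and their summed level ran from 170.5 to 296.9 CPM in libraries labelled TMEM106B-/- and from 128.3 to 394.1 CPM in the others. Exons of Tnpo3 on the other strand cover 14.1% of the exonic bases of Irf5.

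The 12 further liver members called included genes of metabolism, signalling and matrix. Akr1b3, an aldose reductase, had 4.55 to 6.73 CPM in WT and 5.59 to 7.54 CPM in TDP-43Q331K, against 17.9 to 46.1 CPM in TMEM106B-/- and 5.47 to 34.4 CPM in the combined genotype. Its mean difference was large (log2 1.87 ± 0.35, adjusted p 0.00763) but 2 libraries of the combined genotype stayed at the level of the others. Akr1b3 has close copies in the same cluster, and how reads shared between them were counted is not given, so its value is uncertain. Grm8, a metabotropic glutamate receptor, fell by 1.53 ± 0.29 (log2) and Kcp, a secreted modulator of BMP signalling next to Irf5, by 1.05 ± 0.24. Gngt1, a G protein gamma subunit known from photoreceptors, rose by 1.53 ± 0.28 from a low level of 0.41 to 1.19 CPM in WT. Tspan33, a tetraspanin, and Ppp1r9a, the actin-binding neurabin, each fell by 0.82. Pdk4, an inhibitor of pyruvate dehydrogenase, rose by 0.86, with 2.08 to 3.54 CPM in TMEM106B-/- and 3.31 to 11.6 CPM in the combined genotype. Smo, the transducer of Hedgehog signals, Tfpi2, a protease inhibitor, Col1a2, a chain of type I collagen, Bpgm, which makes 2,3-bisphosphoglycerate, and Exoc4, a subunit of the exocyst, rose by 0.71, 0.65, 0.63, 0.44 and 0.41. Stellate cell and fibroblast markers, of which Col1a2 is typical, had scores of 0.089 to 0.686 in libraries labelled TMEM106B-/- and -0.303 to 0.268 in the others, and their part in the Col1a2 result was not tested.

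**Figure D2:**
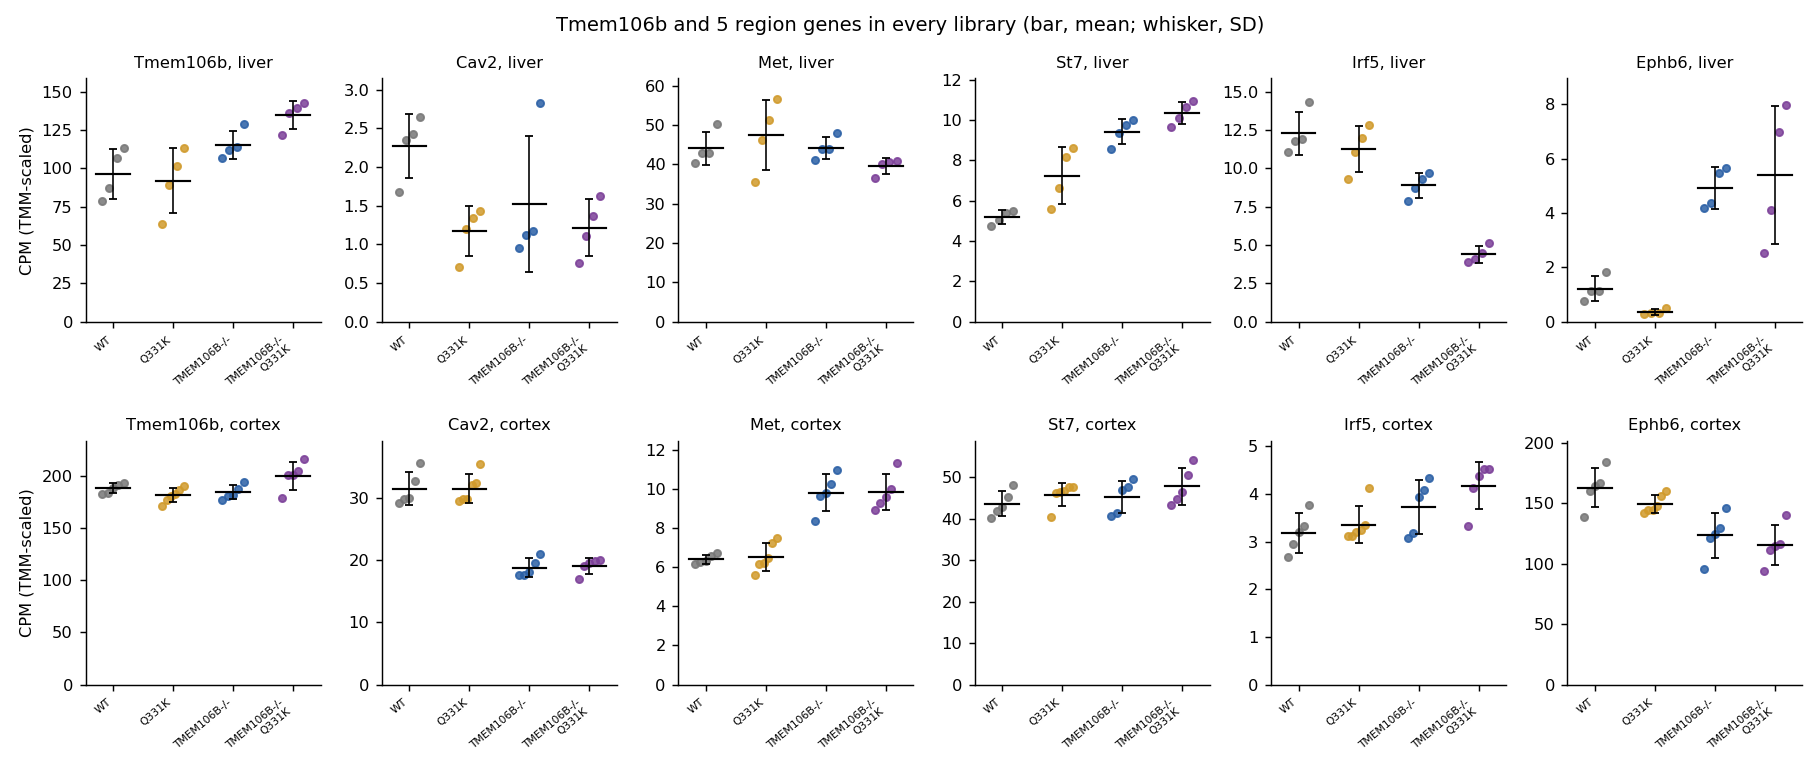
CPM after TMM scaling (vertical axes, from 0) of Tmem106b and 5 members in every library of liver (top) and cortex (bottom), by genotype. Points are libraries, bars means and whiskers SD: Ephb6 in liver and Cav2 and Met in cortex separate the libraries by TMEM106B label, while Tmem106b does not.

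In cortex, Cav2 had the smallest adjusted p of the members and fell in every library labelled TMEM106B-/-. Cav2 codes for caveolin-2, a partner of caveolin-1 in the coat of caveolae, and starts at 17281185, 4.21 Mb from Tmem106b. It stood at 29.9, 32.8, 29.3, 30.03 and 35.7 CPM in WT and between 29.6 and 35.5 CPM in the 6 TDP-43Q331K cortices. It stood at 18.1, 19.6, 17.7, 17.7 and 21.1 CPM in TMEM106B-/- and at 19.8, 19.6, 20.1, 19.1 and 17.0 CPM in the combined genotype. The 10 libraries labelled TMEM106B-/- all lay below the 11 others, a 1.66-fold lower level (log2 -0.73 ± 0.05, adjusted p 1.11e-09). In liver, where Cav2 was at 0.71 to 2.83 CPM, the effect was -0.26 ± 0.24 with an adjusted p of 0.602. The next gene along, Cav1, starts at 17306335 and codes for caveolin-1. Cav1 rose 1.35-fold in cortex (log2 0.43 ± 0.08, adjusted p 0.00152), from a median of 8.95 CPM (7.97 to 10.9) to 12.6 CPM (7.84 to 15.5). In this fit these neighbours had opposite directions, but with the cell-type scores described below Cav1 was at 0.21 with an adjusted p of 0.659.

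Met, the receptor of hepatocyte growth factor, starts at 17463800 and rose in cortex without overlap between the labels. It stood at 6.58, 6.30, 6.23, 6.69 and 6.18 CPM in WT and between 5.58 and 7.50 CPM in TDP-43Q331K. It stood at 10.3, 10.9, 9.63, 9.79 and 8.37 CPM in TMEM106B-/- and at 10.0, 11.3, 9.59, 9.28 and 8.92 CPM in the combined genotype. The rise was 1.52-fold (log2 0.60 ± 0.06, adjusted p 2.27e-06), whereas liver Met gave -0.13 ± 0.08 with an adjusted p of 0.446. Pot1a, a telomere-end binding protein that starts at 25743737, was the third cortex member with no overlap. Pot1a ran from 29.0 to 31.1 CPM in the 11 libraries with TMEM106B and from 21.3 to 27.8 CPM in the 10 labelled TMEM106B-/- (log2 -0.28 ± 0.04, adjusted p 9.10e-05). These 3 genes are 2.03% of the members tested, against 0.292% of all genes tested.

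Most of the other cortex members with small p-values changed by less than 2-fold. Luc7l2, a component of the U1 splicing machinery, was lower by 0.20 ± 0.03 (median 292 against 255 CPM, adjusted p 4.89e-05). Exons of Gm26699 on the other strand cover 18.9% of its exonic bases. Kdm7a, a histone demethylase, was higher by 0.29 ± 0.04 (129 against 160 CPM). Aass, the enzyme that starts lysine breakdown in mitochondria, was higher by 0.48 ± 0.07 (4.03 against 5.62 CPM). Smo was higher by 0.58 ± 0.09 (7.55 against 11.3 CPM), and Tmem178b by 0.19 ± 0.03 (248 against 288 CPM). Gpr37, a receptor found in myelinating oligodendrocytes, was lower by 0.66 ± 0.10 (60.3 against 34.6 CPM). Foxp2, a transcription factor of deep-layer and striatal neurons, was lower by 0.58 ± 0.14 (27.5 against 20.3 CPM). Deep-layer markers had scores of -1.211 to 0.042 in libraries labelled TMEM106B-/- and -0.316 to 0.151 in the others, and striatal markers -0.712 to -0.302 and -0.54 to 1.413. Their summed levels were 287.1 to 537.7 CPM and 448.4 to 552.5 CPM for the deep layers, and 93.95 to 142.6 CPM and 118.2 to 320.3 CPM for the striatum. The part of these markers in the Foxp2 result was not tested. The largest rises were those of Fam180a (1.5 ± 0.27), Slc13a4, a sulfate transporter (1.43 ± 0.32), and Col1a2 (1.10 ± 0.22). For Slc13a4 the ranges were 1.01 to 12.4 CPM and 5.46 to 28.01 CPM, so the labels overlapped widely.

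Markers of other cell types moved with the TMEM106B label in cortex, and the cortex members depend on how those are treated. Oligodendrocyte scores (mean log2 level of 7 markers relative to the WT mean) ran from -1.385 to -0.263 in libraries labelled TMEM106B-/- and from -0.616 to 0.034 in the others. Their summed level was 1040 to 2491 CPM and 1934 to 3247 CPM. Meningeal scores ran from 0.254 to 2.008 and from -0.827 to 1.029, with summed levels of 21.3 to 84.2 CPM and 8.66 to 39.8 CPM. None of these markers was at 0 throughout. Genotype accounted for 77.8% of the variance of the oligodendrocyte score and 57.4% of that of the meningeal score. In a fit added after the data were seen, with both scores as covariates, 1 of 148 members and 6 of all genes were called. The member was Cav2, at -0.87 ± 0.09 with an adjusted p of 1.88e-05. Of the 43 members called without the scores, 30 kept their direction and 18 kept over 50% of their change. Met was at 0.53 (adjusted p 0.0986), Pot1a at -0.26 (0.319), Luc7l2 at -0.22 (0.166) and Aass at 0.33 (0.474). Gpr37, Foxp2, Fam180a, Slc13a4, Arhgef5 and Col1a2 were between -0.10 and 0.16. The median SE of the 43 rose from 0.0685 to 0.115 in that fit.

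**Figure D3:**
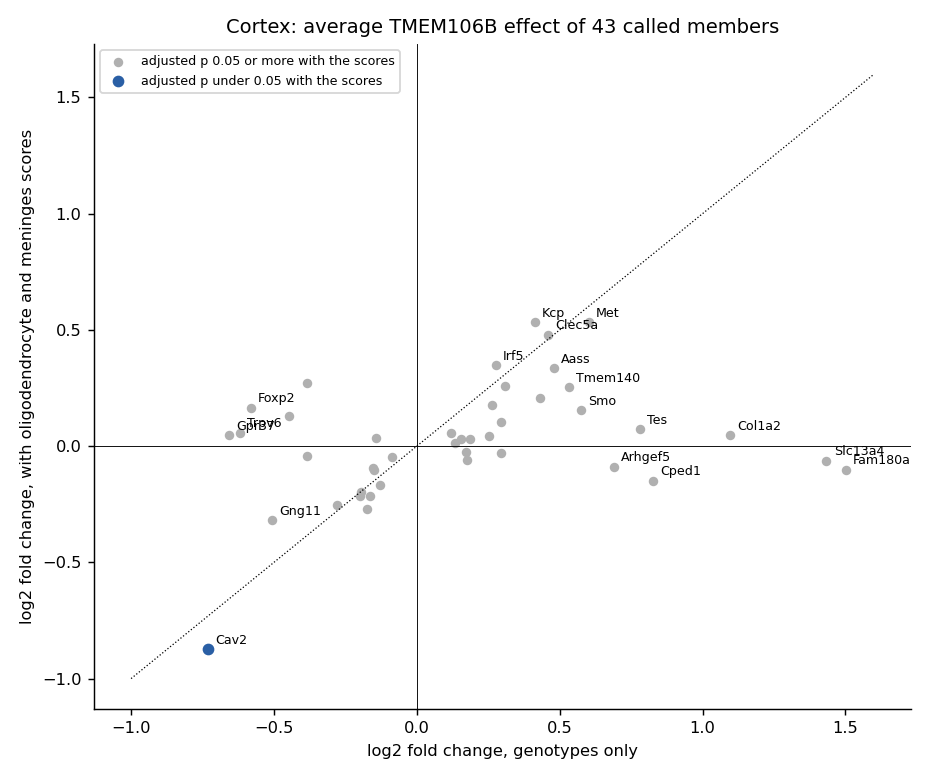
Log2 fold change of the 43 cortex members called in the average TMEM106B effect, with genotypes only (horizontal axis) and with oligodendrocyte and meningeal scores added (vertical axis). Points on the dotted line did not move: Cav2 and Met lie near it, while Fam180a, Slc13a4 and Gpr37 lie near 0 on the vertical axis.

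The TMEM106B label can be compared on 2 backgrounds that share no library. In liver, TMEM106B-/- against WT called 9 members (6.82%, against 1.05% of all genes), and the combined genotype against TDP-43Q331K called 17 (12.9%, against 3.94%). In cortex the same comparisons called 26 (17.6%, against 5.16%) and 10 (6.76%, against 1.4%). Called in both with the same sign were 4 members in liver (3.03%, against 0.275% of all genes): St7, Ephb6, Zyx and Tcaf1. In cortex they were 8 (5.41%, against 0.711%): Cav2, Met, Aass, Pot1a, Smo, Luc7l2, Kdm7a and Tmem178b. Cav2 gave -0.74 ± 0.07 on the WT background and -0.72 ± 0.06 on the TDP-43Q331K background, and Met gave 0.61 ± 0.09 and 0.59 ± 0.08. Ephb6 in liver gave 2.01 ± 0.33 and 3.88 ± 0.37, and St7 0.86 ± 0.13 and 0.51 ± 0.13. Across members the 2 sets of differences had Pearson's r of 0.493 and Spearman's rho of 0.256 in liver (n = 132) and 0.83 and 0.76 in cortex (n = 148), as a description over genes that share libraries. Over all genes the same values were 0.262 and 0.052 in liver and 0.675 and 0.504 in cortex.

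**Figure D4:**
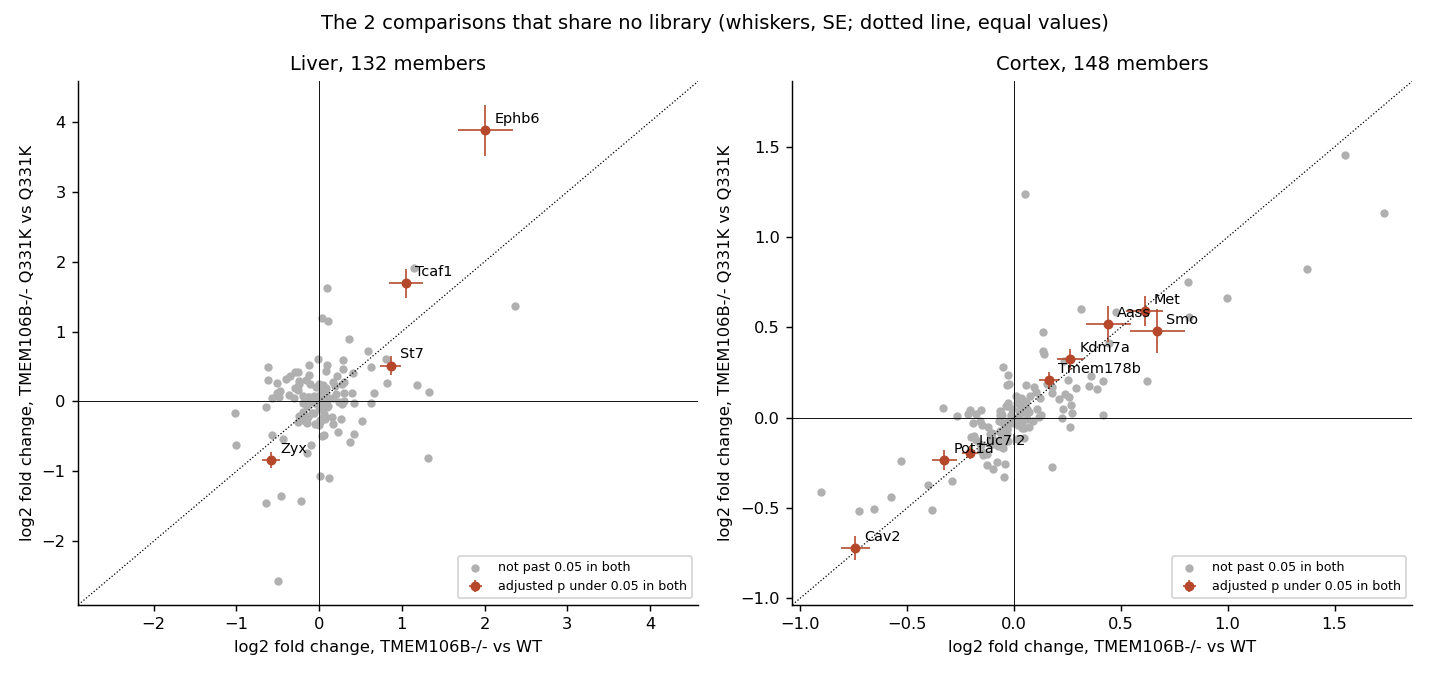
Log2 fold change of each member for TMEM106B-/- against WT (horizontal axis) and for the combined genotype against TDP-43Q331K (vertical axis), in liver and cortex. Whiskers are SE, the dotted line marks equal values, and the 4 liver and 8 cortex members called in both are named. The correlation was higher in cortex (r 0.83) than in liver (r 0.493).

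These per-background counts moved with single libraries, and matching counts over all genes are not given here. Leaving out 1 of 16 livers gave 2 to 10 members for TMEM106B-/- against WT, with the count under 6 without WT replicate 2 or 3 or TMEM106B-/- replicate 1, 2 or 3. It gave 8 to 20 for the other background, where TDP-43Q331K replicates 3 and 4 and replicates 1, 2 and 3 of the combined genotype mattered most. In cortex the ranges were 15 to 27, lowered most by leaving out WT replicate 3 or 4 or TMEM106B-/- replicate 1, and 4 to 21, which 9 of the 21 libraries moved by over 1.5 times (TDP-43Q331K replicates 1, 3, 4 and 5, TMEM106B-/- replicate 5 and replicates 1, 3, 4 and 5 of the combined genotype). Average effects were steadier, with 13 to 19 members in liver and 38 to 50 in cortex. Of the 17 liver members called, 12 passed in all 22 alternative fits, among them Ephb6, Tcaf1, Zyx, St7, Irf5, Grm8 and Akr1b3. Ppp1r9a, Pdk4, Smo and Bpgm each lost their call without any of 7 to 9 single libraries, among them WT replicate 3, TDP-43Q331K replicates 3 and 4 and replicate 3 of the combined genotype, with adjusted p of at most 0.0903. Of the 43 in cortex, 1 (Cav2) passed in all 28 alternative fits, and 36 passed whichever of 21 libraries was left out.

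Members called in both tissues differed in direction in 5 of 7 cases. Of 125 members tested in both, these 7 were 5.6%, against 0.649% of all genes. Opposite in sign were 4.0% of members and 0.273% of all genes, and alike in sign 1.6% and 0.376%. Over all genes called in both tissues, 40 of 95 were opposite in sign. Col1a2 (0.63 in liver, 1.10 in cortex) and Smo (0.71 and 0.58) were higher in both. Ephb6 was 2.94 higher in liver and fell by 0.39 ± 0.07 in cortex, from a median of 156 CPM to 118 CPM. Tcaf1 rose by 1.37 in liver and fell by 0.09 ± 0.02 in cortex, where it stood at 330.6 against 316 CPM. Akr1b3 rose by 1.87 in liver and fell by 0.15 ± 0.04 in cortex. Irf5 fell by 0.91 in liver and was 0.28 ± 0.08 higher in cortex, and Kcp fell by 1.05 in liver and was 0.41 ± 0.11 higher in cortex. The cortex call of Irf5 was lost in 11 of 28 alternative fits, 8 of which each left out 1 library. With the cell-type scores added, none of the 7 was called in cortex: Ephb6 was at -0.042 (adjusted p 0.919), Tcaf1 at -0.045 (0.793), Akr1b3 at -0.093 (0.757), Irf5 at 0.35 (0.529) and Kcp at 0.53 (0.44). Whether the effect differs between tissues was not tested, since each tissue was fitted alone. Over the 125 members, 71 had the same sign in both tissues and r was 0.12. Matching values over all genes are not given here.

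By position, the called members lay both near to and far from Tmem106b, and whether they cluster was not tested. Non-coding genes close to Tmem106b that the rule left out were also called in liver. Among them, picked by their values, were 1110019D14Rik (log2 -3.23, 0.802 Mb away) and Gm4876 (-1.84, 3.995 Mb away). Within 5 Mb of Tmem106b, 1 of 21 members was called in liver and 5 of 22 in cortex (Foxp2, Tes, Cav2, Cav1 and Met). Between 5 and 15 Mb away, 6 of 34 were called in liver and 15 of 38 in cortex, and beyond 15 Mb 10 of 77 and 23 of 88. The nearest 3 members upstream, Thsd7a, Phf14 and Ndufa4, and downstream, Tmem168, Bmt2 and Gpr85, were not called in either tissue. Their largest change was that of Thsd7a (0.54 ± 0.32 in liver, adjusted p 0.382), and Gpr85 was too low to test in liver. The widest gap without a called member was 12.21 Mb in liver, from Pdk4 to St7 across Tmem106b. This gap holds the 2 called non-members named above. In cortex it was 7.35 Mb, from Tac1 to Foxp2. Of adjacent called members, 10 of 16 pairs in liver and 21 of 42 in cortex had the same sign. In 6 Mb steps from 3 to 45 Mb, the cortex counts were 7 of 27, 1 of 8, 5 of 10, 7 of 14, 5 of 33, 8 of 32 and 10 of 24. The share in cortex was 13.7% over all genes and 16.4% over other protein-coding genes. The liver counts were 5 of 25, 0 of 7, 1 of 11, 0 of 11, 5 of 30, 3 of 28 and 3 of 20, against 4.18% of all genes. The steps between 9 and 27 Mb hold fewer than 20 genes each.

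**Figure D5:**
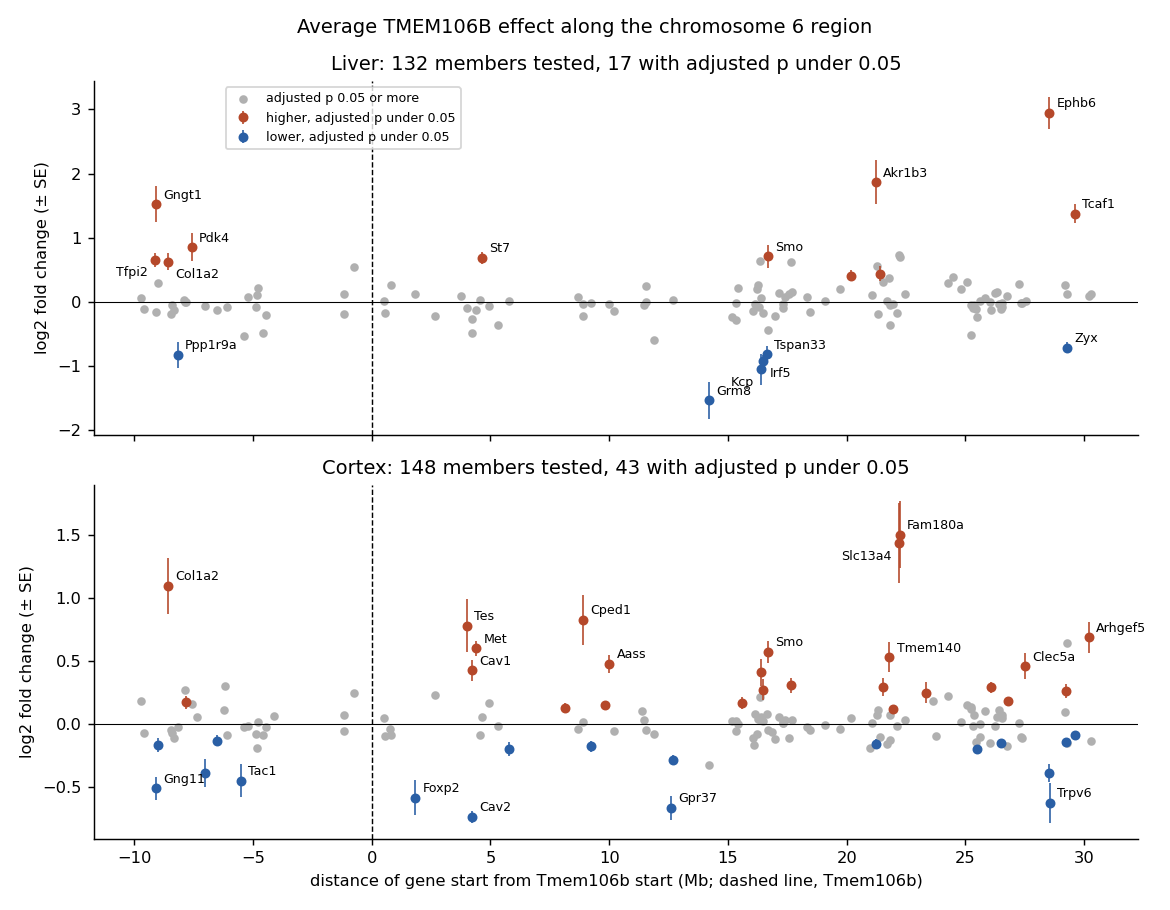
Average TMEM106B effect (log2 fold change, vertical axis) of each member against the distance of its start from that of Tmem106b (Mb, horizontal axis), in liver and cortex; coloured points are called and carry SE. Coloured points of both signs run along the whole region, and in liver none lies between 7.59 Mb before and 4.62 Mb after Tmem106b.

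Grouped by role, no list had all its tested members called. The counts below stand against 4.18% of all genes called in liver and 13.7% in cortex. Of other protein-coding genes, 4.27% and 16.4% were called. A list of receptor kinase and other signalling genes also holds the caveolins, St7 and Smo. Of its genes, 3 of 12 tested rose in liver (Ephb6, St7 and Smo). In cortex 4 of 14 rose and 2 fell (Cav2 and Ephb6). Ptprz1, a receptor phosphatase of astrocytes and precursor cells, rose by 0.16 ± 0.03 in cortex. Of immune genes, Irf5 and Tspan33 fell in liver and Irf5 rose in cortex, out of 12 and 11 tested. Of the genes for mitochondrial proteins, Pdk4 rose in liver, and in cortex Aass rose while Adck2 and the aspartate-glutamate carrier Slc25a13 fell, out of 12 in each tissue. Of the genes for metabolic enzymes and lipid handling, Akr1b3, Bpgm and Pdk4 of 19 rose in liver, and in cortex Aass and Pon2 of 16 rose while Akr1b3 fell. Of neuronal receptors, channels and synaptic proteins, 9 of 19 tested were called in cortex, 5 higher (such as the potassium channel Kcnd2 by 0.13 ± 0.03) and 4 lower (such as Tac1, the substance P precursor, by 0.45 ± 0.13). Tac1 is also typical of striatal neurons, whose markers are given above, and their part in its result was not tested. In liver 7 neuronal genes were tested, of which Gngt1 rose and Grm8 and Ppp1r9a fell. Of 8 imprinted genes tested in liver, Tfpi2 rose and Ppp1r9a fell. Of 7 imprinted genes tested in cortex, Mest (0.31 ± 0.06) and Pon2 (0.17 ± 0.05) were higher. Exons of Copg2 on the other strand cover 23.1% of those of Mest. Of 17 trafficking and cytoskeleton genes, Exoc4 rose and Zyx fell in liver, and Cald1 and Tes rose in cortex. The median log2 fold change of the lists ran from -0.142 to 0.0803 in liver and from -0.00999 to 0.106 in cortex. With the cell-type scores added, Cav2 alone of the cortex members was called. Of the genes named in this paragraph, Slc25a13, Pon2, Cald1 and Tac1 then changed direction, while 30 of all 43 called cortex members kept theirs.

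TDP-43Q331K changed few members. In liver its average effect over both TMEM106B labels called 2 members (1.52%, against 0.545% of all genes). Exoc4 stood at 9.96, 8.73, 8.53 and 10.7 CPM in WT and at 14.6, 14.1, 14.3 and 16.4 CPM in TDP-43Q331K. It stood at 12.4, 12.3, 15.2 and 10.5 CPM in TMEM106B-/- and at 21.02, 21.3, 19.2 and 17.6 CPM in the combined genotype. Exoc4 was 0.65 ± 0.08 higher (adjusted p 0.00128), at 0.65 on each background. Irf5 was lower by 0.57 ± 0.09 on average (adjusted p 0.00679). TDP-43Q331K against WT called Exoc4 alone (0.758%, against 0.263%), and the combined genotype against TMEM106B-/- called Exoc4, Irf5 and Pdk4 (2.27%, against 1.04%). The interaction, the TMEM106B difference on the TDP-43Q331K background minus that on the WT background, was called for Irf5 (-0.89 ± 0.18, adjusted p 0.0327) and for Epha1 (-0.80 ± 0.16, adjusted p 0.027), 1.52% of members against 0.688% of all genes. Epha1, an ephrin receptor, stood at 49.5 to 57.99 CPM in WT, 62.01 to 80.7 CPM in TDP-43Q331K, 70.3 to 85.5 CPM in TMEM106B-/- and 51.8 to 67.4 CPM in the combined genotype. Leaving out 1 liver moved this count of 2 to between 0 and 4, and 12 of the 16 livers did so by over 1.5 times. The interaction called 0 members when 3 livers high in acute phase genes were left out, namely the second WT, the fourth TMEM106B-/- and replicate 1 of the combined genotype.

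In cortex the 4 TDP-43Q331K comparisons (average, against WT, on the TMEM106B-/- background, and interaction) called 0 members and 0.0% of all genes by edgeR. Unadjusted p-values under 0.05 were found for 8, 7, 14 and 12 of 148 members. These are 5.41%, 4.73%, 9.46% and 8.11% of members, against 5.27%, 4.88%, 4.96% and 4.57% of all genes. The difference between these shares was not tested. DESeq2 and limma-voom called no member either. The average effect called 1 member when 4 cortices at the extremes of the marker lists were left out, namely replicate 2 of the combined genotype, the fifth TMEM106B-/-, the third TDP-43Q331K and the first WT.

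All 155 members were tested in at least 1 tissue. The filter on low counts left 23 untested in liver and 7 in cortex. For Gngt1 and Tes the median of the libraries with TMEM106B was under 1 CPM in both tissues, so the limit on level was met through the libraries labelled TMEM106B-/- and their rise is not independent of the rule. In all, 53 members were called in liver or cortex, and 102 in neither. The median size of the change among called members was 0.823 in liver and 0.308 in cortex, and the smallest were 0.409 and 0.088. Among the genes just inside the 45 Mb limit are Tcaf1 and Arhgef5 (0.69 ± 0.12 higher in cortex). Just outside lie Cntnap2, Cul1 and Ezh2, of which Cntnap2, a neuronal adhesion protein, was 0.26 ± 0.04 higher in cortex (adjusted p 9.10e-05). Just inside the level limit lie Lmod2 (1.14 CPM in liver), Tes (1.16 in cortex) and Tfec (1.21 in liver), and just outside Rnf133 (0.972 in cortex), Rnf148 (0.809) and Cftr (0.807).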

How the data were processed

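Gene counts deposited by the authors, 1 table per tissue, were used as deposited. The labels' protocols give a NEBNext Ultra II Directional library kit, and the submitters' processing notes name FastQC, Trim Galore and cutadapt and the builds GRCm38 and mm10. For aligner, counter and strand setting: not given in the sources used here. Of the cortex columns, 1 matched no sample and was not used. Genes were matched to GENCODE M21 by identifier. Counts were fitted per tissue with all 4 genotypes in edgeR 4.0.16 (R 4.3.3; quasi-likelihood, robust, TMM, filterByExpr with a minimum count of 10 and total of 15), with Benjamini-Hochberg adjustment over 16710 liver and 21248 cortex genes. Levels are CPM after TMM scaling, and errors of fold changes are SE. The residual degrees of freedom were 12 and 17. The fits were tested on simulated data. Alternatives were DESeq2 1.42.0, limma-voom (limma 3.58.1) with sample weights, RLE size factors, no filter, only the compared groups, a replicate block and leaving out each library.

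Members and gene lists were chosen with earlier results of these data known. Named genes are Tmem106b and 5 markers of the region (Cav2, Met, St7, Ephb6, Irf5), up to 10 called members per direction and tissue by smallest p, members called in both tissues or by TDP-43Q331K, the nearest 3 members on each side of Tmem106b, the genes at the limits of the rule, and up to 4 per list. Other called members named were chosen after their values were seen.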

Additional observations from a re-analysis of the deposited data

Results flagged for a closer look

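Across 17 genes and 136 groups of libraries, 8 libraries stood far from the rest of their group, and chance flags about 1 group in 20. In liver, TMEM106B-/- replicate 4 had 2.83 CPM of Cav2 (nearest 1.18), TDP-43Q331K replicate 3 had 147.7 CPM of Aass (nearest 227), and WT replicate 2 had 24.4 CPM of Kdm7a (nearest 15.6). Tmem178b was at 0.0623 CPM in TMEM106B-/- replicate 3 and at 0.0345 CPM in replicate 4 of the combined genotype, with all other libraries of those groups at 0. In cortex, TDP-43Q331K replicate 6 had 40.3 CPM of St7 (nearest 46.2), replicate 3 had 4.13 CPM of Irf5 (nearest 3.34), and replicate 4 had 307.5 CPM of Luc7l2 (nearest 294.5).

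The TMEM106B difference in liver depended on the TDP-43 genotype for Irf5 (interaction -0.89, adjusted p 0.0327) and Epha1 (-0.80, adjusted p 0.027) in edgeR's test. Ephb6 (2.94 in liver, -0.39 in cortex), Tcaf1 (1.37 and -0.09) and Kcp (-1.05 and 0.41) had opposite directions in the tissues, and that difference was not tested.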

How the results depend on the processing

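Under the alternatives, counts of members called moved by over 1.5 times as follows, and the cause was not tested. Matching shares over all genes are not given here, nor for leaving out 1 library or the replicate block. These counts therefore do not show whether members moved more than other genes. In liver, DESeq2 called 7 members in the average TDP-43Q331K effect (edgeR 2), 6 against WT (1), 8 on the TMEM106B-/- background (3), 6 in the interaction (2) and 7 on both backgrounds (4). limma-voom called 30 for the combined genotype against TDP-43Q331K (17), and 6 and 4 for the first 2 TDP-43Q331K comparisons. TDP-43Q331K against WT called 2 without a filter. With only the compared groups, counts were 3 for TMEM106B-/- against WT (9), 0 for TDP-43Q331K against WT and 1 on the TMEM106B-/- background. Without 3 livers with high acute phase transcripts (chosen after seeing the data) they were 4, 0 and 1, and 0 for the interaction. In cortex, the combined genotype against TDP-43Q331K called 23 by DESeq2, 17 by limma-voom and 6 without a filter (edgeR 10). Both backgrounds together called 14 by DESeq2 and 5 without a filter (8), and TMEM106B-/- against WT called 17 without a filter (26). Without 4 cortices with extreme markers (chosen after seeing the data) counts were 17 for TMEM106B-/- against WT, 1 for the average TDP-43Q331K effect and 4 on both backgrounds, with 43 in the average TMEM106B effect.

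With oligodendrocyte and meningeal scores as covariates (chosen after seeing the data), 1 member was called in the average TMEM106B effect, 1 on each background and 1 on both, and 0 in both tissues. Directions turned for Pon2 (-0.061), Slc25a13 (0.27), Tac1 (0.13), Foxp2 (0.16), Cped1 (-0.15), Gpr37 (0.046), Lrrc4 (-0.023), Cald1 (-0.030), Slc13a4 (-0.062), Fam180a (-0.10), Trpv6 (0.058), Fam131b (0.036), Arhgef5 (-0.089) and Tmem106b (-0.042).

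Leaving out 1 library gave in liver 13 to 19 members (average TMEM106B effect), 2 to 10 (against WT), 8 to 20 (against TDP-43Q331K), 2 to 5 (both backgrounds, fewest without WT replicate 2 or TMEM106B-/- replicate 2 or 3), 2 to 3 (average TDP-43Q331K effect), 0 to 2 (TDP-43Q331K against WT, moved by 13 of 16 livers), 1 to 3 (on the TMEM106B-/- background, 1 without replicate 2 of the combined genotype) and 0 to 4 (interaction). In cortex it gave 38 to 50, 15 to 27, 4 to 21 and 4 to 13 (moved by TDP-43Q331K replicates 1, 3, 4 and 5 and replicates 1, 3, 4 and 5 of the combined genotype) for the first 4, and 0 in the TDP-43Q331K comparisons. The count in both tissues was 6 to 9.

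Correlations of same-numbered deviations ran from -0.255 to 0.347 in liver, with a median of -0.049 against 0.012 for other pairs. In cortex they ran from -0.262 to 0.21, with a median of -0.016 against 0.011. Of these pairs, 5 of 24 in liver and 5 of 30 in cortex were over 0.1. Pairing by replicate number was thus not seen in the medians, and it was not tested. With the replicate block the average TMEM106B effect called 18 members in liver and 37 in cortex, TDP-43Q331K against WT called 0 in liver, and in cortex the combined genotype against TDP-43Q331K called 6 and both backgrounds 5. At low level the error was wide: liver Cav2, at 0.71 to 2.83 CPM, had an SE of 0.24.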

Other observations

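Several genes near the members that the rule left out differed more than most members, and they were chosen after their values were seen. 1110019D14Rik, a long non-coding RNA that starts 0.802 Mb after Tmem106b, stood at 1.63 to 2.66 CPM in the 8 livers of WT and TDP-43Q331K and at 0.0631 to 0.345 CPM in the 8 livers labelled TMEM106B-/-. It fell by 3.23 ± 0.20 on the log2 scale (edgeR, adjusted p 1.43e-07), and in cortex it gave -0.06 with an adjusted p of 0.689. Gstk1, a glutathione transferase of mitochondria and peroxisomes at 42.2 Mb, stood at 72.5 to 92.1 CPM in livers of WT and TDP-43Q331K and at 145 to 243 CPM in those labelled TMEM106B-/- (1.25 ± 0.09, adjusted p 2.27e-07). In cortex, Trbc2, a constant segment of the T cell receptor beta locus, stood at 7.99 to 11.3 CPM in the 11 libraries with TMEM106B and at 0.659 to 5.14 CPM in the other 10 (-2.33 ± 0.23, adjusted p 7.79e-06).

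Beyond the 45 Mb limit, some genes also differed with the TMEM106B label, and those named were chosen after their values were seen. Atp6v0e2, a subunit of the proton pump that acidifies lysosomes, starts at 48.5 Mb and stood at 0.463 to 0.709 CPM in livers of WT and TDP-43Q331K and at 3.003 to 9.27 CPM in those labelled TMEM106B-/- (3.26 ± 0.21, adjusted p 1.91e-07). Ccdc126 at 49.3 Mb rose by 1.31 ± 0.15 in liver (adjusted p 7.74e-05) with no overlap. Tril, a co-receptor of Toll-like receptors at 53.8 Mb, stood at 42.4 to 51.0 CPM in the 11 cortices with TMEM106B and at 52.9 to 60.03 CPM in the other 10 (0.28 ± 0.03, adjusted p 1.85e-05). In cortex, 10 of 37 protein-coding genes between 45 and 51 Mb and 10 of 33 between 51 and 57 Mb were called. The share in cortex was 13.7% over all genes and 16.4% over other protein-coding genes. In liver 3 of 35 and 1 of 29 were called, the latter (3.45%) below the 4.18% of all genes. Between 57 and 63 Mb, 0 of 13 in cortex and 0 of 12 in liver were called by edgeR. Called genes returned further along: between 81 and 87 Mb they were 14 of 67 in cortex (20.9%) and 8 of 64 in liver (12.5%). Shares varied between steps, down to 0 of 15 in cortex and 0 of 13 in liver between 147 and 153 Mb. Ranked by the share of genes called, chromosome 6 was number 2 of the chromosomes in liver (6.95%) and number 3 in cortex (17.1%), and chromosome 14 was number 1 in both (7.91% and 19.0%).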
